A study of Mus musculus with 4 samples.

Results

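The 10 genes described here encode the Smads and the ubiquitin ligases that act on them, Smad1, Smad2, Smad3, Smad4, Smad5, Smad6, Smad7, Smurf1, Smurf2 and Trim33. They were chosen by symbol from the 22063 genes of the table, by a rule that uses no measured value but was set with earlier results of these data known, and all 10 had enough counts to be tested, as did 11448 genes in all. RNA-seq was performed on ID8 cells, a mouse ovarian cancer line that arose from ovarian surface epithelium. The control cells (shCtrl, 2 libraries) carried a control short hairpin RNA in otherwise wild-type ID8 cells, and the knockdown cells (shUSP9X, 2 libraries) carried a hairpin against Usp9x in the same line. Neither group is described as having received TGF-β, hypoxia or a drug, and the labels do not say whether the libraries of a group came from separate cultures. The comparison asks how the RNA of the TGF-β transducers stood in cells that had lost the deubiquitinase USP9X.

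Ligands of the TGF-β family bring receptor kinases together, and these phosphorylate the receptor Smads. Smad2 and Smad3 carry the signal of TGF-β and activin, Smad1 and Smad5 that of bone morphogenetic proteins (BMPs), and both sets bind the common partner Smad4 and enter the nucleus. The inhibitory Smads, Smad6 and Smad7, are themselves induced by the pathway and close a feedback loop, the HECT ligases Smurf1 and Smurf2 tag receptors and Smads for degradation, and Trim33 (also called TIF1γ or ectodermin) attaches a single ubiquitin to Smad4, a mark that USP9X is known to remove. RNA levels say nothing of the phosphorylation or ubiquitin marks by which these proteins are mostly regulated.

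Usp9x itself was read first. The knockdown constructs listed by the study for mouse Usp9x target these 21-base stretches, shown because they define the perturbation, in the sense of the messenger RNA from 5′ to 3′:

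shUSP9X#2: gataattgcagcccttattaa

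shUSP9X#3: tcgtaatgtatgccaatttag

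Both stretches lie in coding sequence of Usp9x on the X chromosome (GRCm38), the first at chrX:13107160-13107180 in exon 7 of 45 and the second at chrX:13159883-13159903 in exon 38. The labels call the knockdown libraries shUSP9X-21 and shUSP9X-22 and do not state which construct the cells carried. No annotated transcript of the 10 genes came closer to either stretch than 6 mismatches. The closest approach of shUSP9X#2 was in Trim33, with 6 mismatches, and that of shUSP9X#3 was in Smurf1, with 6 mismatches. How close unrelated transcripts come by chance was not computed, and an effect of either hairpin on these genes was not tested. Usp9x (ENSMUSG00000031010, chrX:13071498-13173328, plus strand) stood at 298 and 282 CPM (counts scaled to library size after TMM normalization) in the shCtrl libraries and at 19.7 and 20.5 CPM in the shUSP9X libraries. Its mean fell 14.4-fold, from 290 ± 11.6 to 20.1 ± 0.570 CPM (SD, n = 2), a drop of 93.1%, with an edgeR adjusted p of 4.7e-26. The log2 fold change of -3.85 became -2.15 and -1.85 with the offsets for GC content and length described further on, both still past the threshold.

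Of the 10 genes, 5 were lower in shUSP9X cells (Trim33, Smad7, Smurf2, Smad6 and Smad5), 2 were higher (Smad3 and Smurf1) and 3 were not called (Smad1, Smad2 and Smad4) at an edgeR adjusted p under 0.05. The contrast was broad: 33.6% of all genes tested were lower and 33.8% were higher by the same rule, so 7 calls among 10 genes are near the share for the transcriptome. The median log2 fold change of the 10 genes was -0.13, beside -0.00051 over all genes tested. The study's own cutoff is a DESeq2 p under 0.05 before adjustment with a change of more than 1.5-fold. Applied here to the edgeR values, it gave Trim33 and Smad7 as lower and none of the 10 as higher. By the same rule 18.7% of all genes were lower and 10.8% higher. In bulk RNA, fewer cells of a kind and less RNA per cell cannot be told apart.

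**Figure D1:**
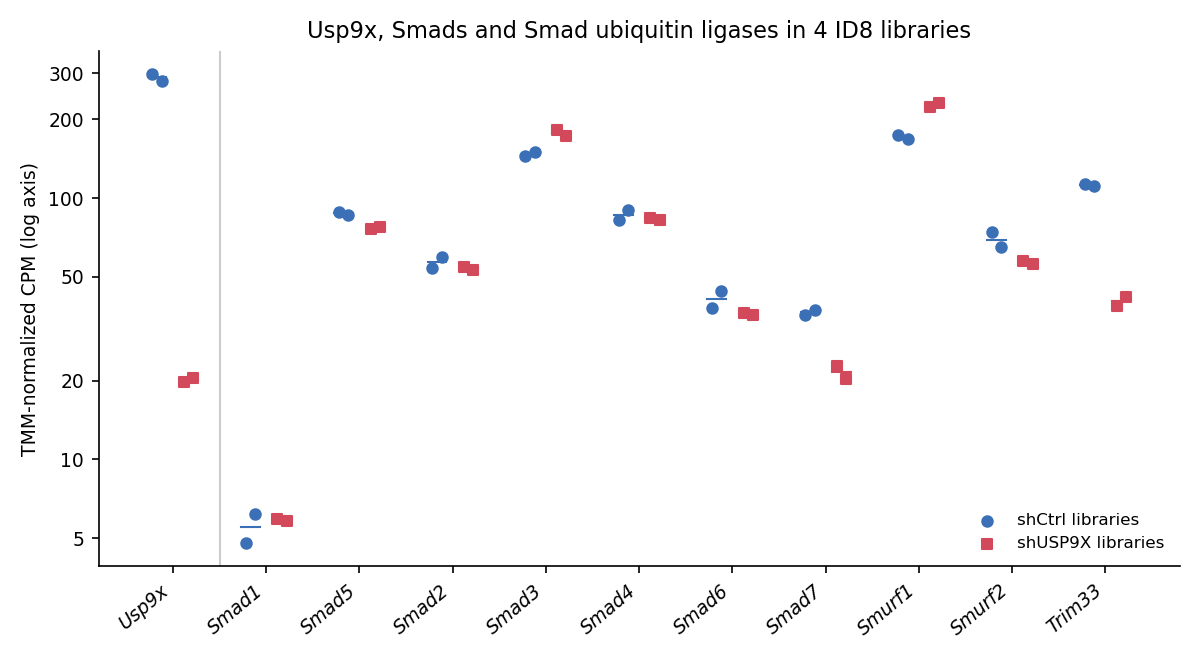
Level of each of the 10 genes in each library and of Usp9x (CPM, log axis), with circles for the 2 shCtrl and squares for the 2 shUSP9X libraries and a short line at each group mean. The shUSP9X points of Trim33 (38.6 and 42.0 CPM) and Smad7 (22.8 and 20.4 CPM) lie well below their controls, those of Smurf1 and Smad3 lie above, and those of Smad1, Smad2 and Smad4 overlap.

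Among the receptor Smads of the TGF-β and activin branch, Smad3 rose and Smad2 was not called. Smad3 (ENSMUSG00000032402, chr9:63646767-63757994, minus strand) read 145 and 150 CPM in shCtrl and 182 and 173 CPM in shUSP9X libraries. Both knockdown libraries lay above both controls. The means were 148 ± 3.99 and 178 ± 5.83 CPM (SD, n = 2), a 1.20-fold rise (log2 fold change 0.27, SE 0.05, 95% CI 0.17 to 0.36, edgeR adjusted p 1.1e-05). Smad2 (ENSMUSG00000024563, chr18:76241580-76310963, plus strand), which shares with Smad3 the receptors that activate it, read 53.9 and 59.5 CPM in shCtrl and 54.4 and 53.2 CPM in shUSP9X libraries. Its groups overlapped, and the log2 fold change of -0.07 (SE 0.07, edgeR adjusted p 0.345) had a 95% interval of -0.21 to 0.07. With the GC content and length offsets described further on, Smad2 was called higher. It stood at 0.67 beside 0.21 for Smad3 with the longest transcript, and at 0.31 beside 0.27 with the nearest.

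The BMP receptor Smads were expressed very unequally. Smad5 (ENSMUSG00000021540, chr13:56703010-56742377, plus strand) read 88.9 and 86.1 CPM in shCtrl and 76.5 and 77.8 CPM in shUSP9X libraries, with both knockdown libraries below both controls. The means of 87.5 ± 1.93 and 77.1 ± 0.890 CPM (SD, n = 2) differed by a log2 fold change of -0.18 (SE 0.05, edgeR adjusted p 0.00476), but the direction turned when the trend of fold change on GC content was removed, as described further on. Smad1 (ENSMUSG00000031681, chr8:79338395-79399518, minus strand) was the least abundant of the 10, with 83 and 98 estimated counts in shCtrl and 117 and 98 in shUSP9X libraries, or 4.79, 6.20, 5.92 and 5.82 CPM. Its groups overlapped, and at this depth a log2 change anywhere between -0.31 and 0.51 lay inside the 95% interval (estimate 0.10, edgeR adjusted p 0.671). Smad9, the remaining BMP receptor Smad and not one of the 10, was also scarce, with 114 and 87 estimated counts in shCtrl and 84 and 66 in shUSP9X libraries, and fell by 0.56 on the log2 scale (SE 0.21, edgeR adjusted p 0.0193), a call that was lost with the offset described further on (adjusted p 0.085 and 0.221).

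Smad4, the partner that all receptor Smads share, was not called. Smad4 (ENSMUSG00000024515, chr18:73639009-73703780, minus strand) read 82.7 and 89.7 CPM in shCtrl and 84.1 and 82.7 CPM in shUSP9X libraries. The groups overlapped, with means of 86.2 ± 4.98 and 83.4 ± 0.951 CPM (SD, n = 2), and the log2 fold change was -0.05 (95% CI -0.16 to 0.07, edgeR adjusted p 0.480). With the longest-transcript offset described further on it was called lower (-0.15, edgeR adjusted p 0.0204), and with the nearest transcript it was not (-0.06, 0.376).

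Of the inhibitory Smads, Smad7 fell well past the threshold and Smad6 narrowly past it. Smad7 (ENSMUSG00000025880, chr18:75367529-75395935, plus strand), which blocks receptor Smads at the type I receptor, read 35.6 and 37.4 CPM in shCtrl and 22.8 and 20.4 CPM in shUSP9X libraries. The groups were far apart, with means of 36.5 ± 1.32 and 21.6 ± 1.74 CPM (SD, n = 2). The level fitted by edgeR was 40.7% lower, a log2 fold change of -0.75 (SE 0.09, 95% CI -0.95 to -0.56, edgeR adjusted p 7.5e-08). Smad6 (ENSMUSG00000036867, chr9:63953076-64022059, minus strand), which acts mostly on the BMP branch, read 38.0 and 44.2 CPM in shCtrl and 36.2 and 35.6 CPM in shUSP9X libraries. The knockdown libraries lay below both controls but close to the lower one. The log2 fold change of -0.19 (SE 0.08, edgeR adjusted p 0.0423) was past the threshold by little, and without shCtrl replicate 2 it was -0.08 with an adjusted p of 0.457. The call was lost in 8 of 16 alternatives, among them leaving out shUSP9X replicate 1 (edgeR adjusted p 0.0955) or shUSP9X replicate 2 (0.159) and DESeq2 (0.241).

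The ligases moved in different directions. Trim33 (ENSMUSG00000033014, chr3:103279293-103358775, plus strand) had the largest change of the 10 without the offset described further on, with 113 and 111 CPM in shCtrl against 38.6 and 42.0 CPM in shUSP9X libraries. The means were 112 ± 1.60 and 40.3 ± 2.38 CPM (SD, n = 2). The level fitted by edgeR fell 2.79-fold, a drop of 64.1% (log2 fold change -1.48, SE 0.06, 95% CI -1.60 to -1.36, edgeR adjusted p 1.8e-17). With the offset the log2 fold change was -0.36 from the longest transcript and -1.03 from the nearest. Trim33 and Usp9x, the ligase and the deubiquitinase of the same Smad4 mark, were thus both lower at the RNA level. Smurf1 (ENSMUSG00000038780, chr5:144876495-144965847, minus strand) read 175 and 168 CPM in shCtrl and 223 and 231 CPM in shUSP9X libraries, a 1.32-fold rise of the mean from 171 ± 4.65 to 227 ± 5.86 CPM (SD, n = 2), with no overlap (log2 fold change 0.40, SE 0.04, edgeR adjusted p 5.7e-09). Smurf2 (ENSMUSG00000018363, chr11:106820066-106920715, minus strand), its close relative, went the other way, with 73.9 and 64.8 CPM in shCtrl and 57.4 and 56.1 CPM in shUSP9X libraries. Its mean fell from 69.3 ± 6.40 to 56.7 ± 0.907 CPM (SD, n = 2), with no overlap (log2 fold change -0.29, SE 0.07, edgeR adjusted p 4.0e-04). The call of Smurf2 was lost with the longest-transcript offset (-0.06, edgeR adjusted p 0.4). Its log2 fold change was -0.18 without shCtrl replicate 1 and -0.38 without shCtrl replicate 2.

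Ratios of related genes within a library do not depend on how libraries are scaled. The log2 ratio of Smurf2 to Smurf1 counts was -1.24 and -1.37 in shCtrl and -1.96 and -2.04 in shUSP9X libraries, a difference of -0.69. That of Smad7 to Smad6 was -0.09 and -0.24 in shCtrl and -0.67 and -0.80 in shUSP9X libraries, a difference of -0.57. Both ratios were lower in both knockdown libraries. The ratio of Smad2 to Smad3 differed by -0.34 and that of Smad1 to Smad5 by 0.29, also with no overlap. The ratios were not run with the GC content and length offsets described further on. In the single-gene values the order of Smad1 and Smad5 turned under both offsets. That of Smad2 and Smad3 turned with the longest transcript (0.67 and 0.21), and with the nearest they lay close together (0.31, SE 0.07, and 0.27, SE 0.04). The difference in ratio of Smad1 to Smad5 was 0.08 without shCtrl replicate 1 and 0.50 without shCtrl replicate 2. For each of the 4 ratios the exact two-sided permutation test gave p = 0.333, which is the smallest that 2 against 2 libraries allow.

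Per length, in FPKM (fragments scaled to transcript length and library size, as deposited), the order of levels in shCtrl cells ran from Smurf1 (38.2 ± 0.0679, SD, n = 2) through Smad3 (30.4 ± 0.984), Smad4 (26.0 ± 2.05), Trim33 (24.2 ± 0.188), Smad2 (22.1 ± 1.99), Smurf2 (17.6 ± 1.73), Smad6 (14.0 ± 1.55), Smad5 (13.5 ± 0.393) and Smad7 (10.7 ± 1.17) down to Smad1 (1.77 ± 0.356). Of the neighbours in that order, only the values of Smad6 and Smad5 overlapped between libraries. In shUSP9X cells Smurf1 (51.1 ± 1.79) and Smad3 (46.4 ± 0.499) remained the highest and Smad1 (1.86 ± 0.0120) the lowest, while Trim33 (9.10 ± 0.325) went from rank 4 to rank 8. The sum of the receptor Smads Smad1, Smad2, Smad3 and Smad5 was 65.7 and 69.9 FPKM in shCtrl and 82.0 and 83.7 FPKM in shUSP9X libraries, and Smad3 made up 45.2% and 44.5% of it in shCtrl and 56.2% and 55.9% in shUSP9X libraries. These shares are of FPKM as deposited, in which Smad3 rose by more than in counts. Under both offsets described further on, Smad5 rose by more than Smad3 (log2 fold change 0.42 and 0.57 against 0.21 and 0.27). Smad2 did so with the longest transcript (0.67). With the nearest transcript Smad2 stood at 0.31 (SE 0.07), close to Smad3 at 0.27 (SE 0.04). The sum over all 10 genes lay between 194 and 203 FPKM in every library.

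The rise of Smad3 was larger in FPKM than in counts. Its FPKM values were 29.7 and 31.1 in shCtrl and 46.1 and 46.8 in shUSP9X libraries, a difference of 0.61 on the log2(FPKM + 0.1) scale beside 0.27 in counts. The transcript length that links a gene's count to its FPKM was therefore computed for each library. For Smad3 it was 4900 and 4895 bases in shCtrl and 3900 and 3669 bases in shUSP9X libraries. The annotation lists Smad3 transcripts of 5090, 744, 466, 429 and 406 bases, and the deposited table does not say how reads were divided among them. Of 9079 genes with at least 100 counts in each library, 161 (1.77%) shortened by over 0.3 on the log2 scale with no overlap between groups, and 25 lengthened by as much. Smad3 was the only one of the 10 past that limit. As a check of the measure, 97.7% of 568 genes with a single annotated transcript came out within 1% of their annotated length in every library. Smad6 gave 2971 bases in every library, which is the length of its longest annotated transcript.

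**Figure D2:**
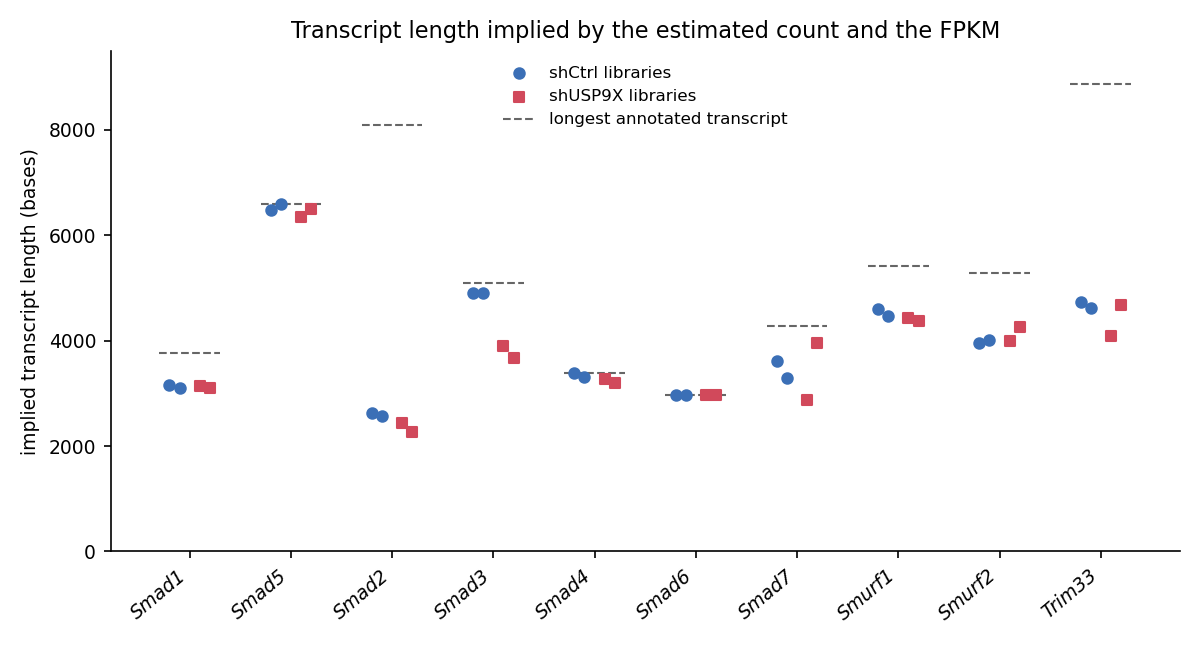
Transcript length implied by count and FPKM in each library for each of the 10 genes (bases, circles for shCtrl and squares for shUSP9X libraries), with the longest annotated transcript as a dashed line. Smad3 went from 4900 and 4895 bases in shCtrl to 3900 and 3669 bases in shUSP9X libraries, while Smad6 stayed at 2971 bases.

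Across all genes the fold change depended on base composition. In the decile of genes with the lowest GC content (31.0% to 41.2% in the longest transcript) the median log2 fold change was -0.80, and in the decile with the highest it was 0.19. The 10 genes are spread over this range. Trim33 (43.8% GC), Smad5 (44.5%) and Smad2 (44.9%) fell in the same decile, whose median was -0.20, and Smad7 (56.9%) and Smurf1 (55.5%) fell in a decile whose median was 0.22. In their own deciles, 4.20% of genes were as low as Trim33 and 5.86% as low as Smad7. By contrast, 51.4% were as low as Smad5, 33.8% as low as Smurf2 and 22.4% as low as Smad6. The rises of Smad3 and Smurf1 were likewise near the middle of their deciles, with 58.1% and 68.0% of genes as low.

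**Figure D3:**
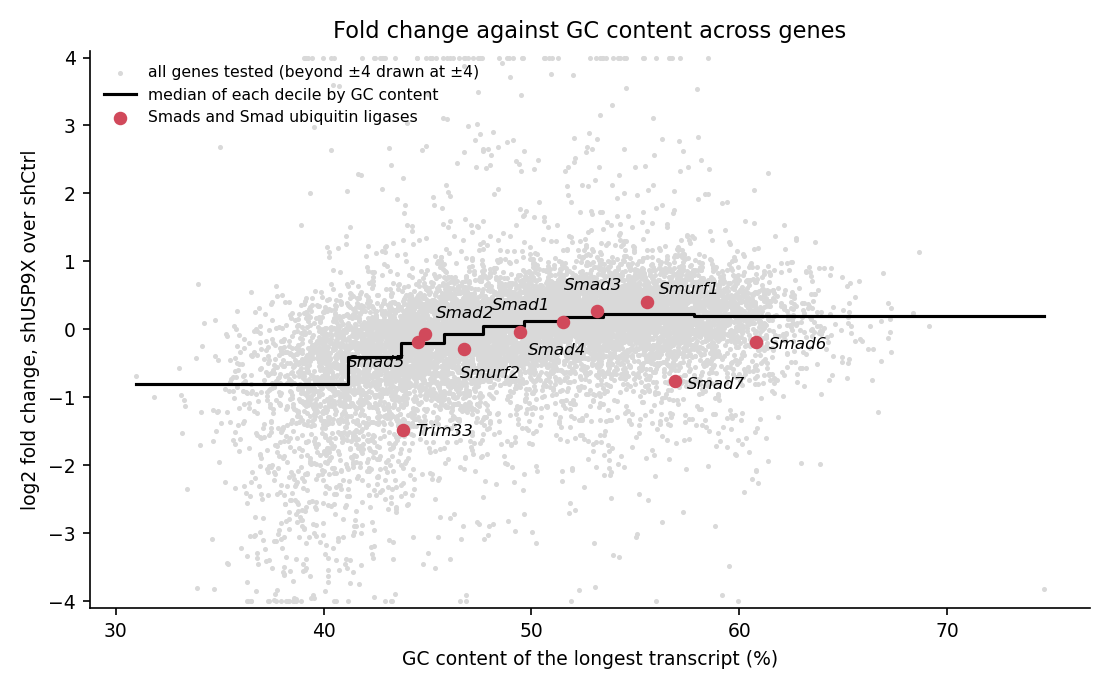
Log2 fold change (shUSP9X over shCtrl) of each gene tested against the GC content of its longest transcript in percent, with the median of each decile by GC content as a stepped line and the 10 genes marked. The medians run from -0.80 to 0.23, and Trim33 and Smad7 lie far below the line at their GC content.

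An offset that removed each library's trend on GC content and transcript length gave 4 of the 10 as lower (Trim33, Smad7, Smad6 and Smad4) and 4 as higher (Smad2, Smad5, Smad3 and Smurf1), beside 25.8% and 38.7% of all genes by edgeR. With the annotated transcript nearest the implied length in place of the longest, 4 were lower (Trim33, Smad7, Smad6 and Smurf2) and the same 4 were higher, beside 25.6% and 38.6% of all genes. The log2 fold change of Smad7 stayed near its first value, at -0.83 and -0.82. Smurf1 stayed at 0.36 in both, and Smad3 at 0.21 and 0.27. Trim33 remained lower but by less, at -0.36, a smaller change than those of Smad7, Smad2 and Smad5, with the longest transcript (8875 bases, 43.8% GC) and -1.03 with the nearest (5025 bases, 45.6% GC). Smad5 turned from -0.18 to 0.42 and 0.57, and Smad2 from -0.07 to 0.67 and 0.31, all 4 offset values past the edgeR threshold. For Smad2 the longest transcript has 8089 bases and the nearest 2410. Its implied length was 2625 and 2567 bases in shCtrl and 2431 and 2274 in shUSP9X libraries, far below the longest. Under the offset the fall of Smad7 stayed larger than that of Smad6 (-0.30 and -0.28), and Smurf2 (-0.06 and -0.19) stayed below Smurf1. The offset values of Smad2 were above those of Smad3 and those of Smad5 above those of Smad1 (-0.02 and 0.06), the reverse of the order without it. With the nearest transcript Smad2 (0.31, SE 0.07) and Smad3 (0.27, SE 0.04) lay close together, and their difference was not tested.

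**Figure D4:**
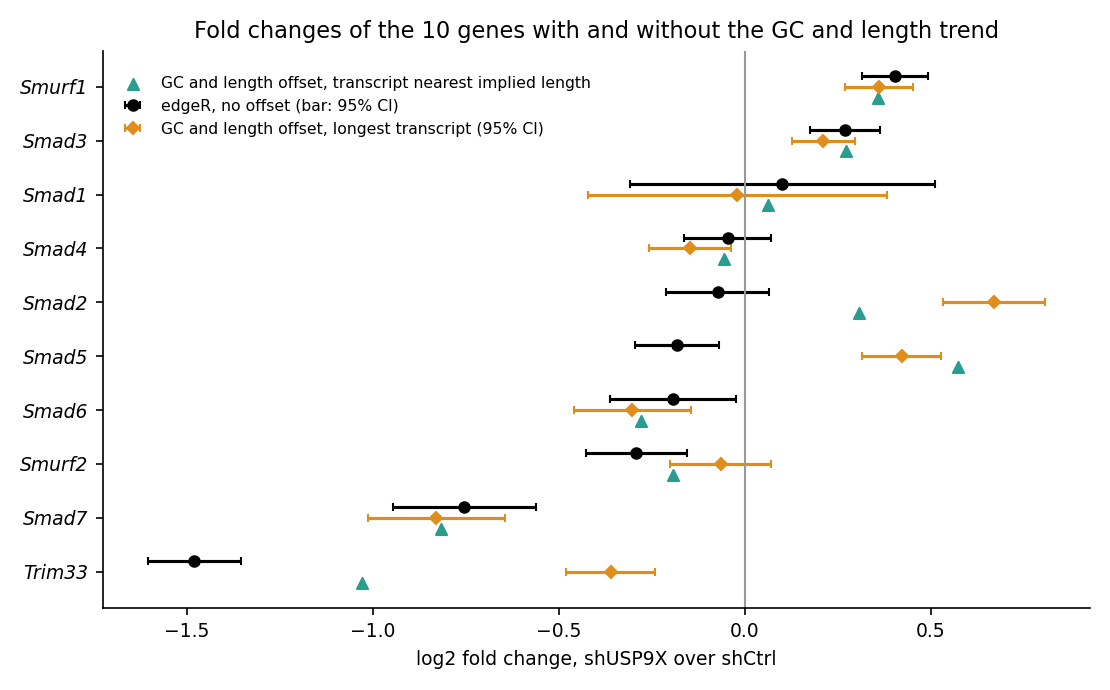
Log2 fold change (shUSP9X over shCtrl) of the 10 genes by edgeR without an offset (black, 95% CI), with the GC content and length offset from the longest transcript (orange, 95% CI) and from the transcript nearest the implied length (green). Smad7, Smurf1 and Smad3 keep their place, Trim33 moves from -1.48 to -0.36 and -1.03, and Smad5 and Smad2 cross the zero line.

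Smad6 carries a textbook Smad sequence at its start. The RefSeq promoter table (GRCm38.p6) held windows of 250 bases before to 50 bases after the gene start for 6 of the 10 genes, Smad1, Smad3, Smad5, Smad6, Smurf1 and Smurf2. The windows of the 6 genes were searched for the palindrome GTCTAGAC, the site first selected by Smad3 and Smad4, which reads the same on both strands. Of these, only the window of Smad6 held it, starting 4 bases before the annotated gene start. Among all 32851 windows in the table, with none left out, 0.213% held it. Whether Smad2, Smad4, Smad7 and Trim33 carry it was not tested. The window, chr9:64022010-64022309 on the minus strand, is shown with the palindrome in capitals because Smad6 is both a Smad and a gene that Smads induce:

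Smad6: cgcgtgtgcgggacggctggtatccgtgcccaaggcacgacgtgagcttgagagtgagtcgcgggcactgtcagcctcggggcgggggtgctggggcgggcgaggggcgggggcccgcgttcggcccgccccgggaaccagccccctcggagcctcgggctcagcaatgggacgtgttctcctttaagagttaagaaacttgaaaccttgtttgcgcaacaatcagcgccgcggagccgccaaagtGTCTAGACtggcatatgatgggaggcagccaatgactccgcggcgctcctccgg

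A match in these letters is a description and does not show binding in ID8 cells.

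The genes around the 10 were read from 4 lists, each to be set beside the 33.6% lower and 33.8% higher among all genes tested, or 25.8% and 38.7% with the longest-transcript offset. Among other ubiquitin ligases and deubiquitinases that act on Smads or their receptors, 21 of 22 were tested, and 10 were lower, 7 higher and 4 not called, with a median log2 fold change of -0.01. With the longest-transcript offset the balance turned to 4 lower and 11 higher, with a median of 0.15 beside 0.07 for all genes. Usp9x headed the falls, followed by Usp34 (227 and 231 against 33.9 and 31.6 CPM) and Usp15 (138 and 131 against 62.7 and 58.5 CPM), a deubiquitinase of receptor Smads and of the type I TGF-β receptor. Their log2 fold changes were -2.80 (SE 0.05) and -1.15 (SE 0.05). With the offset Usp34 remained lower at -1.21 and -1.0, while Usp15 gave 0.34 with the longest transcript and -0.33 with the nearest. Otub1 (0.56), which keeps active Smad2 and Smad3 from being degraded, Usp4 (0.50), a deubiquitinase of the type I receptor, and Rbx1 (0.25), a subunit of cullin ligases, rose most, and edgeR adjusted p was at most 3.7e-04 for each of the 3. With the offset they remained higher, at 0.29, 0.39 and 0.59 with the longest transcript and 0.32, 0.46 and 0.18 with the nearest.

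Of 20 anchors, transport factors and phosphatases, all tested, 8 were lower, 7 higher and 5 not called, with a median of -0.04. This balance turned as well, to 4 lower and 11 higher with a median of 0.22 under the longest-transcript offset, and to 2 lower and 12 higher with the nearest transcript. The deepest falls were those of the endosomal proteins Appl1 (-1.56) and Zfyve16 (-1.17) and of the import receptor Ipo7 (-0.86). Ranbp3 (0.77), which aids export of Smad2 and Smad3 from the nucleus, Fkbp1a (0.48), which binds the type I receptor, and the phosphatase Ctdsp1 (0.42) rose most. With the longest-transcript offset Appl1 remained lower at -0.46, while Zfyve16 stood at -0.16 and Ipo7 at -0.02. With the nearest transcript the 3 values became -0.07, 0.06 and 0.22. Ranbp3 remained higher at 0.72 and 0.58, Fkbp1a at 0.23 and 0.29 and Ctdsp1 at 0.22 and 0.26. Appl1 was also the list gene whose profile over the 4 libraries was nearest to that of Trim33, with a Euclidean distance of 0.0807 in centred log2 CPM, followed by Usp15 (0.365) and the HECT ligase Wwp1 (0.389), out of 74 genes compared. These distances were taken without an offset. With the longest-transcript offset Trim33 stood at -0.36, Appl1 at -0.46, Usp15 at 0.34 and Wwp1 at 0.04. With the nearest transcript the values were -1.03, -0.07, -0.33 and 0.14.

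Of 24 nuclear partners and corepressors, 21 were tested, and 13 were lower, 3 higher and 5 not called, with a median of -0.20. The corepressor Skil (SnoN), which Smads also induce, read 91.0 and 90.5 CPM in shCtrl and 44.0 and 44.4 CPM in shUSP9X libraries (log2 fold change -1.04, SE 0.06, edgeR adjusted p 2.9e-14). The Smad-binding repressor Zeb2 (-0.92) and the corepressor Ncor1 (-0.81) also fell, and the repressors Tgif1 (0.87) and Ctbp1 (0.52) and the adaptor Ldb1 (0.28) rose. With the offset the list split into 4 lower and 7 higher, with a median of -0.03 beside 0.07 for all genes, and Skil stood at -0.01 with the longest transcript and 0.14 with the nearest. Zeb2 stood at 0.54 and -0.24 and Ncor1 at 0.03 and -0.83, while Tgif1 remained higher at 0.99 and 0.76 and Ctbp1 at 0.38 and 0.31. Ldb1 stood at 0.13 and, with its call lost, at 0.07 (edgeR adjusted p 0.309).

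Genes that Smads induce in many cells form the list closest to a readout of the pathway. Of 23, 18 were tested, and 11 were lower, 5 higher and 2 not called, with a median of -0.22. Smad6, Smad7, Smurf1 and Smurf2 are on this list too, and without them 8 of 14 were lower and 4 higher. With the longest-transcript offset 9 of the 18 were lower and 4 higher, with a median of -0.14, and with the nearest transcript 5 of the 14 were lower and 4 higher. Id3, a dominant-negative helix-loop-helix protein induced by BMP signals, read 60.5 and 60.4 CPM in shCtrl and 39.3 and 35.8 CPM in shUSP9X libraries (log2 fold change -0.68, SE 0.07, edgeR adjusted p 3.2e-09). Its relatives Id1 (154 and 149 against 106 and 103 CPM) and Id2 (78.0 and 65.9 against 48.4 and 51.2 CPM) fell too, as did the BMP-induced factor Atoh8 (34.0 and 34.3 against 21.7 and 21.2 CPM). Id1, Id2 and Atoh8 were chosen after their values were seen. Their log2 fold changes were -0.54, -0.53 and -0.67. With the offset all 4 remained lower, with Id3 at -1.0 and -0.97, Id1 at -0.87 and -0.86, Id2 at -0.52 and -0.29 and Atoh8 at -0.82 and -0.78. Snai1 (0.64), which drives epithelial-mesenchymal transition, Pmepa1 (0.60), a feedback inhibitor of receptor Smads, and the cell cycle inhibitor Cdkn1a (0.55) rose, and remained higher with the offset from the nearest transcript at 0.42, 0.53 and 0.33. Snai2, on the same list and named after its value was seen, fell (log2 fold change -0.57, edgeR adjusted p 2.2e-04). It stood at -0.30 with the longest-transcript offset and, with its call lost, at -0.19 with the nearest (edgeR adjusted p 0.193). The TGF-β-induced gene Ccn2, at 0.07, was not called and was singled out after its value was seen.

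**Figure D5:**
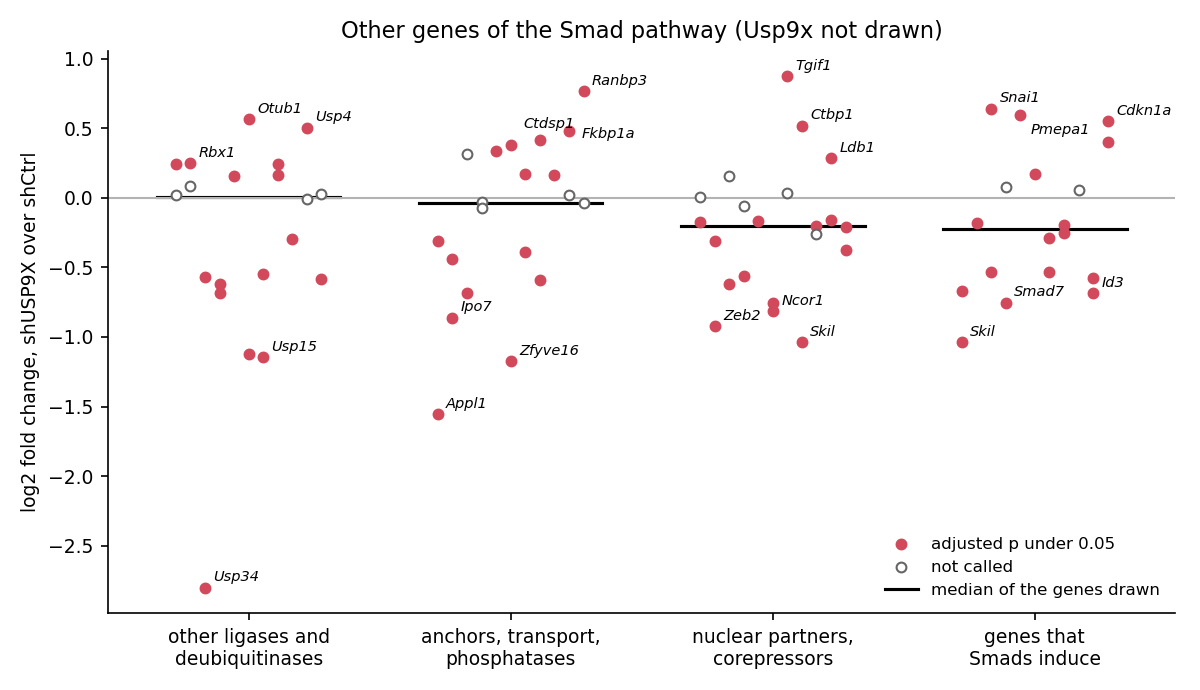
Log2 fold change (shUSP9X over shCtrl, edgeR) of each tested gene in the 4 lists, with the median of the genes drawn as a short line and the genes named by rule labelled. Usp9x is not drawn, and the medians without it are 0.0050, -0.04, -0.20 and -0.22, and each list holds genes on both sides of zero.

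The label of the cells was read against marker genes. Of 8 markers of ovarian surface epithelium, 7 were above 3 counts in every library, with a summed level of 2500 and 2527 CPM in shCtrl and 2836 and 2778 CPM in shUSP9X libraries, and Krt19 was the most abundant at 703, 711, 786 and 751 CPM. The exception was Krt7, at or near 0 throughout. Among the 7 tested, Krt8 (0.92), Krt18 (0.64) and Krt19 (0.12) rose, while Wt1 (-0.52), Msln (-0.47) and Cdh2 (-0.50) fell, and with the longest-transcript offset 2 were higher and 5 lower, Krt19 among them at -0.16. With the nearest transcript 2 were higher and 3 lower, and the fall of Cdh2 was not called (-0.099, edgeR adjusted p 0.129). Leukocyte markers differed between the groups, with a summed level over 8 markers of 0.0577 and 0.253 CPM in shCtrl and 11.4 and 12.6 CPM in shUSP9X libraries. The 5 that entered the test did so only through their counts in the shUSP9X libraries, so their values are given with no test. None of the 8 was above 3 counts in every library, the most abundant was Itgam (0 and 0 against 3.64 and 4.45 CPM), Adgre1 read 0 and 0 against 2.93 and 3.50 CPM and Ptprc 0 and 0 against 1.47 and 1.07 CPM, and Cd3e, which defines T cells, was at 0 in every library. Of 4 endothelial markers, 2 were above 3 counts in every library, with sums of 10.4 and 11.6 CPM in shCtrl and 6.48 and 7.0 CPM in shUSP9X libraries, mostly from Tek (9.92, 10.4, 5.51 and 6.23 CPM), while Cdh5 and Kdr were at 0. The part of these cells or genes in the values of the 10 genes was not tested.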

How the data were processed

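The samples were 2 shCtrl and 2 shUSP9X libraries of ID8 cells, grouped by the condition in their labels. The submitters' processing notes name fastp 0.18.0, Bowtie2 2.2.8, HISAT2, StringTie 1.3.1 and RSEM, and the paper's methods name GRCm38 (mm10). The annotation release and the strand setting are not given in the sources used here. The authors deposited estimated counts per gene, not normalized, of which 6.40% to 6.69% per library were not whole, and they were rounded. The authors also deposited FPKM, scaled for transcript length and library size. The shCtrl libraries summed to 17232006 and 15611363 counts, the shUSP9X libraries to 19978889 and 17021261.

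Counts were filtered with filterByExpr, TMM-scaled and compared in edgeR 4.0.16 under R 4.3.3 (glmQLFit and glmQLFTest, two-sided), with Benjamini-Hochberg adjustment over 11448 genes and no replicate block. CPM are given on the TMM scale. The common biological coefficient of variation was 0.0352, and replicate libraries differed beyond counting noise (chi-square per gene 3.41 in shCtrl and 2.23 in shUSP9X). Nothing states separate cultures, so p-values measure the spread between these libraries, which may be technical. A count of 3 was the floor, and it covers counting error only. The implied transcript length is the count divided by the product of FPKM and library total, scaled to bases. Coordinates, GC content and transcript lengths came from the GRCm38 annotation, in which no counted gene overlaps the exons of the 10. Ratios used counts plus 0.5.

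Named genes were Usp9x, the 10 genes, the 3 deepest falls and 3 largest rises of each list among genes called with no overlap, and the 3 list genes nearest in profile to Trim33. The 10 genes and the lists were chosen with earlier results of these data known. Alternatives were DESeq2 1.42.0, limma-trend (limma 3.58.1) on log2(FPKM + 1) and log2(FPKM + 0.1), other scalings and filters, a replicate block, leaving out each library, the study's cutoff and GC content and length offsets, of which the one from the nearest transcript was added after the data were seen. The scripts were tested on simulated data.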

Additional observations from a re-analysis of the deposited data

How the results depend on the processing

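Smad3 (0.21 to 0.61 on the log2 scale), Smad7 (-0.84 to -0.67), Smurf1 (0.36 to 0.44) and Trim33 (-1.53 to -0.36) kept their direction and stayed past the adjusted threshold under all 16 alternatives run on single genes, as did Usp9x (-3.91 to -1.85, with the smallest changes under the offsets). Of the 10 genes, 3 were lower by DESeq2, 3 by limma-trend on log2(FPKM + 1) and 3 on log2(FPKM + 0.1). By edgeR 5 were lower at the adjusted threshold and 2 at the study's cutoff. The number that rose was 4 with the GC content and length offset, 4 with the replicate block and that offset, 4 with the offset from the nearest transcript and 0 at the study's cutoff, beside 2. Over all genes 7707 were called, and 3376 at the study's cutoff, and leaving out a library gave 6741 to 7521. The offset moved the median of all genes to 0.07. Smad5 turned to 0.42 with the offset, 0.42 with block and offset and 0.57 with the nearest transcript, and was not called by DESeq2 (adjusted p 0.0844), by limma-trend on the FPKM scales (0.0707 and 0.0689) or without shUSP9X replicate 1 (0.0727). Smad2 turned to 0.67, 0.67 and 0.31 under the same 3 offsets and to 0.039 and 0.040 by limma-trend on the 2 FPKM scales, and ran from -0.14 to 0.0030 when a library was left out, the last without shCtrl replicate 2. Smad1 turned to -0.020 with the offset and -0.014 with block and offset, and ran from -0.070 (without shCtrl replicate 1) to 0.30. Smad4 was called with the offset (-0.15, adjusted p 0.0204) and ran from -0.097 to 0.017 when a library was left out, the last without shCtrl replicate 2. Smad6 lost its call in 8 of 16 alternatives (adjusted p 0.053 to 0.457), and Smurf2 with the longest-transcript offset (-0.06, adjusted p 0.4) and with block and offset (-0.06, 0.384). Leaving out a library changed the difference in log2 ratio of Smad1 to Smad5 most, which was 0.08 without shCtrl replicate 1 and 0.50 without shCtrl replicate 2, and in FPKM + 0.1 the ratio of Smad2 to Smad3 differed by -0.57 in place of -0.34. For these changes the cause was not tested.

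With the replicate number as a block in edgeR, 5 of the 10 genes were lower and 2 higher, and 7665 genes were called in all. Same-numbered libraries of the groups did not deviate together (correlation -0.0453 across genes, 2 pairs), so the numbers were not taken as a pairing. Depth limits Smad1 most, at 83 to 117 counts a library.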
